A study of Mus musculus with 28 samples.

Results

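Mitochondrial ribosomal protein genes were taken as the GRCm38 protein-coding genes whose symbol is Mrpl or Mrps followed by digits and at most 1 trailing letter. The rule found 78 genes among 21887 protein-coding genes, 49 named Mrpl and 29 named Mrps, on 17 chromosomes. Chromosome 11 held 11 of them and chromosome 17 held 8. Their chromatin was read from 1 list of intervals enriched for H3K27ac, the acetylation of lysine 27 on histone 3 that accompanies active promoters and enhancers. The list came from wild-type mouse embryos at E10.5, from cranial neural crest cells collected by FACS after dissection. Neural crest cells leave the edge of the neural tube and build most of the skeleton of the face. The list rests on 4 libraries, 1 for each population (FNP, Mx, Md and PA2 in the labels), whose reads the authors merged before calling 125826 intervals with MACS2. The merged call carries no population and no replicate, so every value below is a single value with no replicate error, and sequencing depth is unknown. The series holds 28 libraries in 25 groups, with an earlier stage (E8.5), the genotypes Ezh2cKO and HoxA2OE, other antibodies and input, and 24 of these libraries were not analysed here.

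Mitochondria keep their own ribosomes, which translate the membrane proteins of the respiratory chain that mitochondrial DNA encodes. The ribosomal RNAs are made inside the organelle, whereas every ribosomal protein is encoded in the nucleus, made in the cytosol and imported. Many of these proteins descend from the bacterial ancestor and others have no bacterial counterpart, and the genes for both kinds are scattered over the nuclear genome.

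A gene was called marked when at least 1 bp of an interval lay within 1 kb of either annotated gene end. The score is the authors' deposited value for an interval, which by the convention of MACS2 grows with the significance of the enrichment, and the highest score at a gene was taken as its score. As a check of the cell type label, 11 of 12 genes of neural crest mesenchyme were marked, with scores from 87 to 4697 and a median of 1380, and Tfap2a was unmarked. Of 6 blood genes 3 were marked, Klf1 with a score of 1480, Spi1 with 1492 and Tal1 with 224, and the globin genes Hba-a1 and Hbb-y and the erythroid regulator Gata1 were unmarked. The scores of Klf1 and Spi1 thus lay above the median of the neural crest genes. Of 6 epithelial genes 4 were marked, Grhl2 with 1367 and the others with 207 to 439, and Cdh1 and Esrp1 were unmarked. Endothelial genes were marked in 5 of 6, with scores from 98 to 435, and skeletal muscle genes in 5 of 6, with scores from 137 to 380 and Myod1 unmarked. Of all protein-coding genes 65.0% were marked, with a median score of 2494, above the median of the neural crest genes. The marked share of the blood genes (50%) lay below this 65.0%. The shares of epithelial (66.7%), endothelial and skeletal muscle genes (83.3% each) did not, so marking alone separates these lists poorly. The part of these other cell types in the values below was not tested.

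Sequences between or before annotated starts are shown for 11 stretches, since the results below turn on where an interval lies relative to a start. They come from RefSeq promoter windows of GRCm38.p6, written 5′ to 3′ along the strand of the mitochondrial ribosomal protein gene. Capitals mark matches, on either strand, to 7 motifs. The core bound by ETS factors is CCGGAAG, that of NRF1 is GCATGCG, that of YY1 is ATGGCGG, the box of NF-Y is CCAAT, the box of SP factors is GGGCGG, the cyclic AMP response element is TGACGT, and TATAAA is the TATA box. The first 6 are the whole stretch between the starts of a head-to-head pair, that is, genes transcribed away from each other. Mrps11 with Mrpl46 is the pair in which both genes are members, and the other 5 run from close pairs under a single interval to pairs with separate intervals on the sides of the 2 genes.
Mrps11 to Mrpl46 chr7:78783090-78783130 on strand +: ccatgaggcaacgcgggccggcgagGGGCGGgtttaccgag
Mrpl27 to Eme1 chr11:94653744-94653790 on strand +: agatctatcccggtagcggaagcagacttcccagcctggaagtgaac
Mrpl57 to Ska3 chr14:57826164-57826238 on strand +: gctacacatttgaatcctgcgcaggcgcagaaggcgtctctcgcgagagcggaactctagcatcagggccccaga
Mrpl43 to Twnk chr19:45006443-45006557 on strand -: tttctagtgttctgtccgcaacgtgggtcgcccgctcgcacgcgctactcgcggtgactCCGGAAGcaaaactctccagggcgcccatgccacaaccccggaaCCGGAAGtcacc
Mrps12 to Sars2 chr7:28741822-28741967 on strand -: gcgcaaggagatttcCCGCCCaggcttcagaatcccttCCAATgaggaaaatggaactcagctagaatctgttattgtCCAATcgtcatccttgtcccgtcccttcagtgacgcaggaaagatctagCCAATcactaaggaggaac
Mrpl32 to Psma2 chr13:14613038-14613241 on strand -: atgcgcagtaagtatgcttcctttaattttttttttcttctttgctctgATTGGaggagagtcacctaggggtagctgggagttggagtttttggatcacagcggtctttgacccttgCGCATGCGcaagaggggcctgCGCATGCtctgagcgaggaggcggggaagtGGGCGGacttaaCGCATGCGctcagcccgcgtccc

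The other 5 are the 120 bases before the start of the gene with the highest score, Mrps5, and of 4 genes whose start lies over 1 kb inside the annotated gene, 3 of them unmarked at their gene ends.
Mrps5 chr2:127587306-127587425 on strand +: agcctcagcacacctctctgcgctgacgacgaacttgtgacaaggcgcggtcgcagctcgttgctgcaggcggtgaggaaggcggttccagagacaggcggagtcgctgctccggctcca
Mrpl24 chr3:87919424-87919543 on strand +: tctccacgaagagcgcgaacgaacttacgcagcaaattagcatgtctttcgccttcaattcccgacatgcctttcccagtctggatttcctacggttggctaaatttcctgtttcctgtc
Mrpl22 chr11:58171544-58171663 on strand +: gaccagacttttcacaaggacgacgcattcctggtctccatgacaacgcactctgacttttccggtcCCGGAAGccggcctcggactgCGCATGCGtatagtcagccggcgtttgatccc
Mrps2 chr2:28467946-28468065 on strand +: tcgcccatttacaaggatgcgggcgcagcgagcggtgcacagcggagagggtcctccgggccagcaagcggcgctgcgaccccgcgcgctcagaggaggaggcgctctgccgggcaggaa
Mrps23 chr11:88204268-88204387 on strand +: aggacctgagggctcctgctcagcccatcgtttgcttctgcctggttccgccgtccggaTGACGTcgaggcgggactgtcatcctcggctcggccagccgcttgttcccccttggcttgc

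The stretch between Mrps11 and Mrpl46 holds 1 SP motif and that of Mrps12 holds 3 CCAAT motifs beside 1 SP motif. The capitals in the Mrpl22 stretch are an ETS match and a palindromic NRF1 match, in which the matches on both strands overlap. No motif of the 7 lay between the starts of Mrpl27 and Eme1 or of Mrpl57 and Ska3, nor in the 120 bases before the start of Mrps5, Mrpl24 or Mrps2, which says only that these letters are not in those stretches.

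Nearly all mitochondrial ribosomal protein genes carried acetylation at a gene end. Of the 78, 74 were marked (94.9%), while 65.0% of all protein-coding genes were marked (14235 of 21887). An interval covered a gene-end base in 51 members, the nearest interval lay 1 to 100 bp away in 18, and it lay further away, up to 500 bp, in 3. In merged bulk chromatin, acetylation in more of the cells and more acetylation per cell cannot be told apart. The unmarked members were Mrpl4, Mrpl22, Mrps2 and Mrps23.

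In 5 members the nearest interval lay close to the threshold of 1 kb, between 500 bp and 2.5 kb from a gene end. Just inside it were Mrpl18, a large-subunit protein that in bacteria contacts the smallest ribosomal RNA, with an interval 527 bp from a gene end, and Mrpl24, whose bacterial form sits at the exit of the peptide tunnel, with one at 948 bp. Just outside were Mrpl22, whose bacterial form lines that tunnel, with an interval at 1084 bp, Mrpl4 at 1203 bp and Mrps2, a small-subunit protein, at 2062 bp. For Mrps23 the nearest interval lay 3963 bp from a gene end. In 3 of the 4 unmarked genes the annotated start lies well inside the gene limits, and an interval lay at that start. Mrps2 starts 2115 bp inside its gene, under an interval with a score of 5148 and a width of 752 bp. Mrpl22 starts 1621 bp inside, 32 bp before an interval with a score of 1264 and a width of 635 bp. Mrps23 starts 10282 bp inside, 35 bp before an interval with a score of 1593, with a higher one of 2585 upstream. Mrpl4 has no start in the promoter table, and its nearest interval, 1203 bp inside the gene at chr9:21002455-21003564, had a score of 3530 and a width of 1110 bp. Counting a gene end or an annotated start, 77 of 78 members were marked (98.7%) and 68.2% of protein-coding genes were, and Mrpl4 was the exception. With an interval anywhere in the gene or in the 1 kb around it, all 78 were marked, against 74.4% of protein-coding genes.

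Scores at the members were higher than at the typical marked gene and seldom low. The median score of the 74 marked members was 4267 (quartiles 3078.8 and 6397.5, range 133 to 13527), whereas that of all marked protein-coding genes was 2494 (quartiles 704.5 and 4793.5, range 38 to 34699). The score of 61 members (82.4%) lay above the median of marked genes, and that of 30 (40.5%) lay above their upper quartile, which by construction leaves 25.0% of marked genes above it. Only Mrpl24 had a score under 1000, 1 of 74 (1.35%), against 30.1% of marked protein-coding genes. These shares describe 1 merged list, and no test across libraries was possible.

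The highest scores were spread over both subunits. Mrps5, whose bacterial form lies at the entry of the messenger RNA channel of the small subunit, had a score of 13527, at chr2:127587160-127588015. Mrps12, the decoding-centre protein whose bacterial form is the target of streptomycin resistance mutations, had 11840, and Mrps7, a protein of the small subunit's head, had 11258. Mrpl27, whose bacterial form reaches towards the peptidyl transferase centre, had 10338, and Mrpl58, a peptidyl-tRNA hydrolase built into the large subunit, had 10061. Then came Mrps28 with 9348, Mrpl54 with 9305, Mrpl51 with 8999, and Mrpl46 and Mrps11, which share 1 interval, with 8932. Of these 10 genes, 5 belong to each subunit, and only Mrpl58 and Mrps28 had no interval in common with a neighbouring gene.

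Apart from Mrpl24, the 10 lowest scores all lay above 1000. Mrpl24 stood apart with a score of 133 in an interval of 217 bp, but its annotated start, 1413 bp inside the gene, lies under an interval with a score of 2544. The next were Mrps26 with 1262, Mrpl34, a small protein of the large subunit, with 1294, Mrpl30 with 1728, Mrps18c with 1770, Mrps10 with 2042, Mrps25 with 2161, Mrpl16 with 2243, Mrpl55 with 2244 and Mrpl41 with 2332. Mouse has 3 paralogues of the bacterial S18 protein, 1 of which, Mrps18a, sits in the large subunit. Mrps18a had a score of 3753, Mrps18b 3801 and Mrps18c 1770. The Mrps18b value came from an interval at its far end beside Atat1, while the highest within 1 kb of its start had 3034 and the highest from the start to 1 kb downstream had 365. The remaining marked members had scores from 2334 at Mrpl35 to 8782 at Mrpl18, and each lies in the plot of scores by gene.

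**Figure D1:**
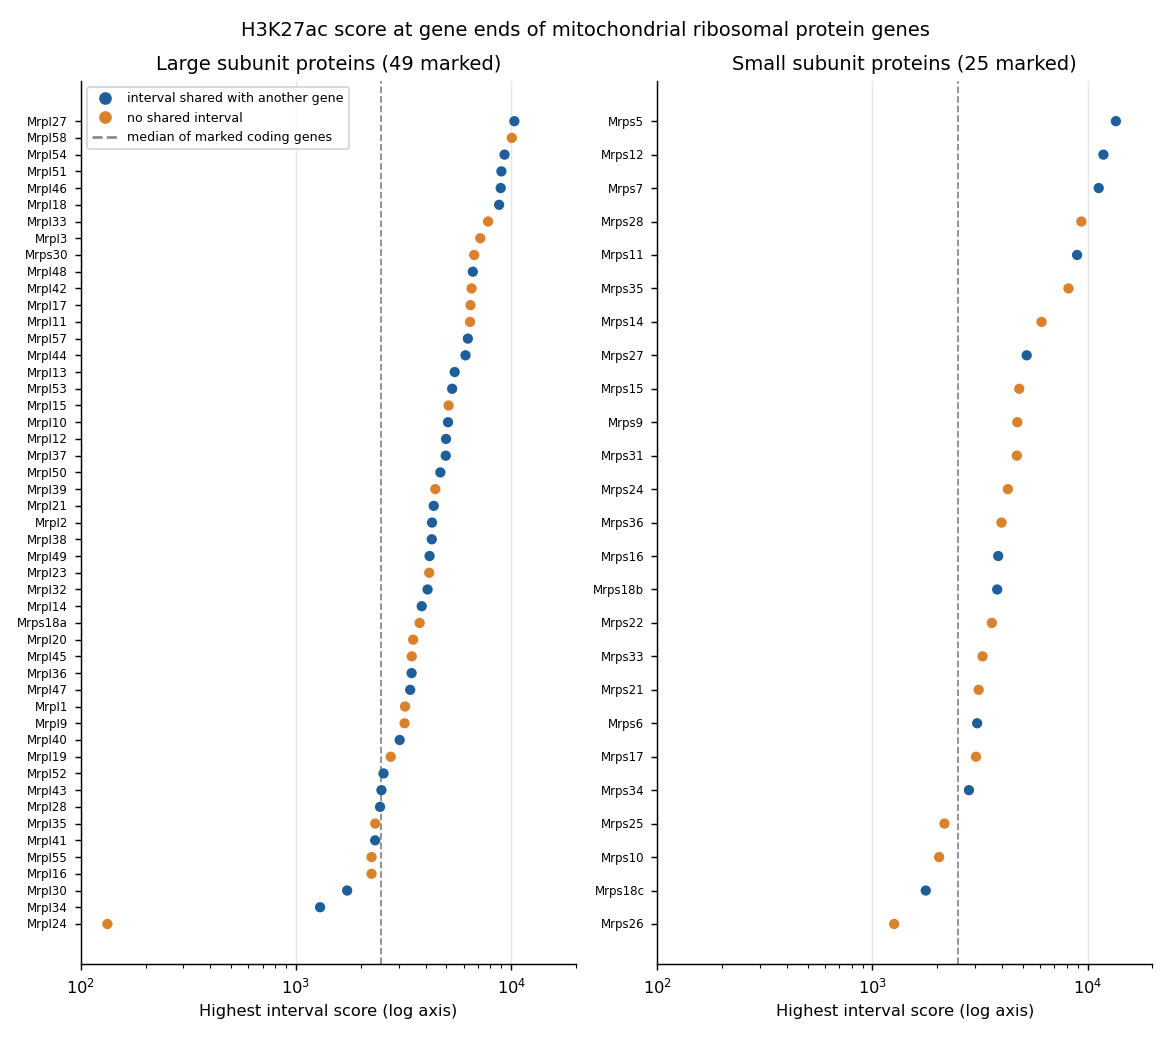
Highest H3K27ac interval score at each of the 74 marked mitochondrial ribosomal protein genes (log axis), with the 49 large-subunit genes on the left and the 25 small-subunit genes on the right, coloured by whether an interval also marks another protein-coding gene; there is 1 merged list, so no error is drawn. In both panels most points lie right of the dashed median of marked protein-coding genes (2494), and Mrpl24 stands apart at 133.

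Large and small subunit genes overlapped over most of their range. The subunit was assigned by gene symbol, with Mrps18a and Mrps30 counted as large, and the role of each protein was not checked. Of 51 genes for large-subunit proteins 49 were marked (96.1%), with a median score of 4285 (range 133 to 10338) and a median width of 864 bp. Of 27 genes for small-subunit proteins 25 were marked (92.6%), with a median score of 3980 (range 1262 to 13527) and a median width of 903 bp. An interval was in common with another gene in 29 marked large-subunit genes (59.2%) and in 10 small-subunit genes (40.0%). The members of the stalk that recruits translation factors, Mrpl10 and Mrpl12, had scores of 5084 and 4978. Mrpl3 and Mrpl2, core proteins around the peptidyl transferase centre, had 7181 and 4285, and Mrpl45, which sits at the tunnel exit facing the inner membrane, had 3449. These 5 genes and their roles were picked after their values had been seen.

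A bacterial counterpart was assigned by gene symbol from a list, and sequences were not compared. Of the S18 paralogues only Mrps18c was listed as having one, and Mrps18a and Mrps18b were counted as without. Genes for proteins without a bacterial counterpart were marked in 31 of 32 cases (96.9%) with a median score of 4438. Those with a counterpart were marked in 43 of 46 (93.5%) with a median of 4158. In the large subunit the medians were 4963 for the 21 marked genes without a counterpart and 3961.5 for the 28 with one. In the small subunit the order was the other way, with 3695.5 for 10 genes without and 4713 for 15 with a counterpart. Intervals at both gene ends were found in 10 of 32 genes without a counterpart (31.2%) and in 3 of 46 with one (6.52%), against 9.91% of protein-coding genes. Of marked genes alone these were 10 of 31, 3 of 43 and 2169 of 14235. Among the 10, Mrpl53, Mrps34, Mrpl43 and Mrps26 are 825, 1170, 1429 and 1638 bp long, and among the 3, Mrpl34 is 828 bp long. In genes this short 1 interval can lie within 1 kb of both ends. Median gene lengths were 8118 bp without and 7610 bp with a counterpart, and the differences were not tested.

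Intervals at the members were of ordinary width. The median width of the highest-scored interval was 866 bp at the members (quartiles 705.2 and 1161.8 bp, range 217 to 1802 bp) and 810 bp at all marked protein-coding genes (quartiles 564 and 1098 bp, range 141 to 2635 bp). The widest were at Mrpl12 with 1802 bp, Mrpl40 with 1660 bp, Mrps36 with 1459 bp, Mrpl13 with 1436 bp and Mrps7 with 1365 bp. The narrowest were at Mrpl24 with 217 bp, Mrps16 with 431 bp, Mrpl55 with 571 bp, Mrpl54 with 572 bp and Mrps27 with 595 bp. Mrpl54 combined the fourth narrowest interval with a score of 9305, and Mrpl40 the second widest with a score of 3031. Across the 74 members, score and width had a Spearman rho of 0.136 and a Pearson r of 0.365 on log10 values, and across 14235 marked protein-coding genes these were 0.578 and 0.709. The coefficients are across genes of 1 merged library set, and genes are not independent replicates.

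**Figure D2:**
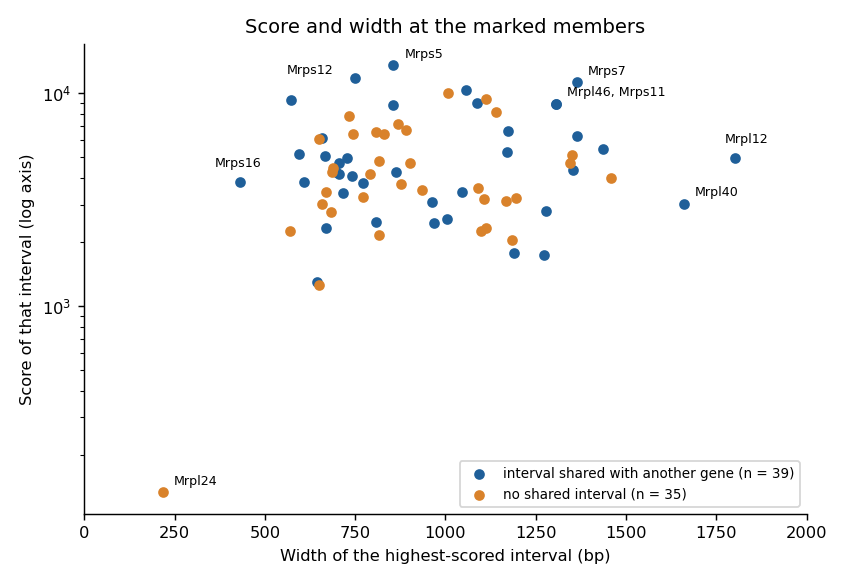
Score (log axis) against width in bp of the highest-scored interval at each marked mitochondrial ribosomal protein gene, coloured by whether an interval also marks another gene (39 genes) or not (35 genes). High scores occur at narrow and at wide intervals, as at Mrps12 (11840, 750 bp) and Mrps7 (11258, 1365 bp), and Mrpl24 lies alone at 133 and 217 bp.

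Most members carried 1 or 2 intervals, at the end where transcription starts. Of the 74 marked, 38 had 1 interval, 28 had 2 and 8 had 3 or more. A single interval was thus found at 51.4% of marked members, near the 47% of marked protein-coding genes. The 69 members with an annotated start were marked at the start end only in 55 cases (79.7%), at both ends in 11 (15.9%), at neither in 3 and at the other end only in 0, while protein-coding genes with a start were marked at the start end only in 52.1%, at both ends in 9.94%, at neither in 35.1% and at the other end only in 2.89%. Among genes marked at an end, the start end alone was marked in 83.3% of members, near the 80.2% of protein-coding genes. Over all 78 members, both gene ends were marked in 13 (16.7%), against 9.91% of protein-coding genes. These shares also count genes with no interval. Of marked genes alone, both ends were marked in 13 of 74 members and in 2169 of 14235 protein-coding genes. The 13 members were Mrpl2, Mrpl34, Mrpl36, Mrpl38, Mrpl43, Mrpl50, Mrpl52, Mrpl53, Mrpl58, Mrps18b, Mrps26, Mrps27 and Mrps34, named here after their values had been seen. Mrpl53, Mrpl34, Mrps34, Mrpl43 and Mrps26 are 825, 828, 1170, 1429 and 1638 bp long, so that 1 interval can lie within 1 kb of both ends. The median length was 7690.5 bp for members and 17169 bp for protein-coding genes.

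At the annotated start itself, all 69 members with a start had an interval within 1 kb (100%), against 65.5% of protein-coding genes with a start. The interval lay over the start in 49 members (71.0%), against 40.7% of protein-coding genes. In 17 members (24.6%) intervals flanked an uncovered start on both sides, against 14.5% of protein-coding genes, and the gap between them had a median of 190 bp (range 55 to 402 bp) in members and 193 bp in protein-coding genes. In Mrpl28, Mrps24 and Mrps9 (4.35%) the interval lay downstream of the start only, against 7.95% of protein-coding genes. In 0 members it lay upstream only, against 2.35%. These shares also count genes with no interval at the start, and so partly restate the frequency of marking. Of the 11458 protein-coding genes with an interval within 1 kb of a start, 7119 had one over the start. Intervals flanked the start in 2537, and lay downstream only in 1391 and upstream only in 411. The centre of the highest-scored interval lay a median of 136 bp downstream of the start in members (quartiles -51 and 349 bp) and 244.5 bp downstream in protein-coding genes. This interval can lie on a neighbour's side of the start, as at Mrpl18 (centre -742 bp) and Mrps12 (-469.5 bp).

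The profile of coverage around the start had a dip just upstream of it. At 160 bp downstream all 69 member starts were covered (100%), and at the start 71.0% were. Within 200 bp of the start, coverage was lowest 80 bp upstream, with 31 of 69 members (44.9%), and returned to 78.3% at 260 bp upstream. Among protein-coding genes marked at a gene end the matching values were 85.4% at 140 bp downstream, 59.1% at the start, 41.5% at 80 bp upstream and 59.2% at 260 bp upstream. Members and other marked genes thus had the dip at the same place, and members had more coverage at each of these points. Further downstream members had less than other marked genes, with 34.8% against 47% at 700 bp and 1.45% against 18.2% at 1000 bp, where all protein-coding genes had 12.6%. From the start to 1 kb downstream, all 69 members again had an interval, against 63.6% of protein-coding genes, with median scores of 3837 and 2525.

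**Figure D3:**
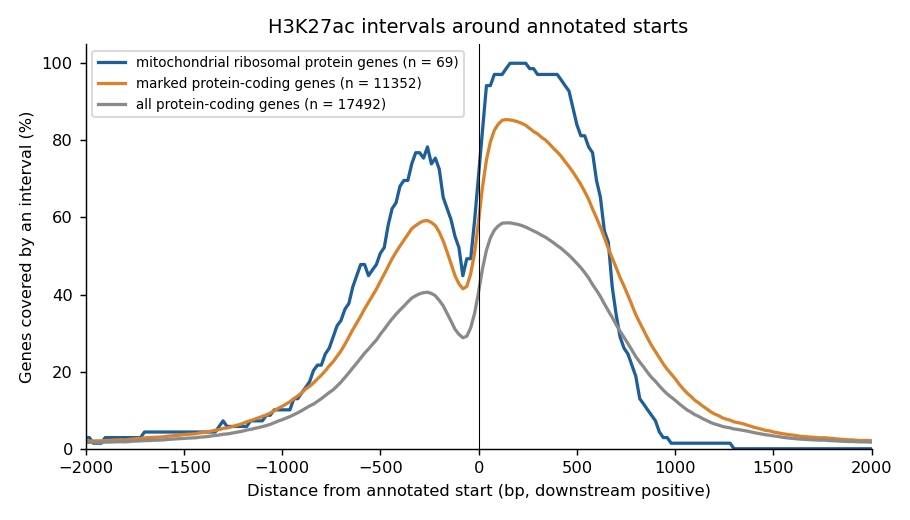
Share of genes (%) covered by an H3K27ac interval at each distance in bp from the annotated start, downstream to the right, for 69 mitochondrial ribosomal protein genes, 11352 marked protein-coding genes and all 17492 protein-coding genes with a start. The members' line reaches 100% at 160 bp downstream, dips to 44.9% at 80 bp upstream and returns to 78.3% at 260 bp upstream.

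Sharing of intervals with a neighbouring gene was common. In 39 of the 74 marked members (52.7%) an interval also lay within 1 kb of an end of another protein-coding gene, against 26.8% of marked protein-coding genes. For 36 of the 39 (92.3%) the highest-scored interval was itself in common with the neighbour, near the 89.5% of protein-coding genes (3411 of 3813). Of the 120 intervals at members 66 (55%) also marked another protein-coding gene, against 14.9% of the intervals at protein-coding gene ends. Members more often had a close neighbour to begin with: another protein-coding gene end lay within 1 kb of 44 of the 78 (56.4%), against 24.8% of protein-coding genes. Of the 42 marked members with such a neighbour 38 had an interval in common with a gene (90.5%), against 74.0% of marked protein-coding genes with one.

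Marking at the members was about as frequent without a close neighbour as with one. Members with no other gene end within 1 kb were marked in 32 of 34 cases (94.1%), against 58.1% of such protein-coding genes. Members with one were marked in 42 of 44 (95.5%), against 86.0%. Median scores were 4364 for members with a common interval and 3980 for those without, while marked protein-coding genes had 3508 with and 2019.5 without. The median at members without a common interval thus lay above that of protein-coding genes with or without one.

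Most of the neighbours were head to head. Of 33 pairs of a member and a neighbour with a common interval and both strands known, 26 were head to head (78.8%), against 60.8% of such pairs over all protein-coding genes. The other 7 pairs were on the same strand (21.2%, against 31.3%), and 0 were tail to tail, against 7.44%. The starts of the 26 pairs lay a median of 144 bp apart (range 32 to 2527 bp), within 200 bp in 16 of them. Only 1 interval marked 2 members, at chr7:78782505-78783810, which is 1306 bp wide and covers the starts of Mrpl46 and Mrps11, 42 bp apart. So a large-subunit and a small-subunit gene start from the ends of the 41 bp shown above.

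The neighbours under the highest scores had varied roles. Mrps5 had its interval in common with the zinc finger gene Zfp661, starting 332 bp away, and Mrps12 with Sars2, which encodes the mitochondrial seryl-tRNA synthetase, 147 bp away. Mrps7 was paired with Gga3, an adaptor of Golgi sorting, 224 bp away, and Mrpl27 with Eme1, a subunit of a DNA repair endonuclease, 48 bp away. Mrpl54 had its interval in common with Apba3, for which the distance was not measured. Mrpl51 was paired with the condensin subunit gene Ncapd2 at 614 bp, Mrpl18 with the chaperonin subunit gene Tcp1 at 238 bp, Mrpl48 with the Golgi GTPase gene Rab6a at 36 bp and Mrpl57 with the spindle gene Ska3 at 76 bp. Other neighbours with mitochondrial roles, named after their values were seen, were Twnk (the helicase of mitochondrial DNA) beside Mrpl43, and the complex I subunit genes Ndufb5 and Ndufs6 beside Mrpl47 and Mrpl36. Mrpl2 and Mrps18b had intervals in common with 2 genes each and Mrps34 with 3.

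A common interval lay on the member's side in some pairs and on the neighbour's side in others. Of the 26 head-to-head pairs, the highest-scored common interval covered both starts in 7, the member's start only in 4, the neighbour's only in 8 and neither in 7. All 7 that covered both had starts within 224 bp of each other, among them Mrpl21 with Ighmbp2 at 32 bp and Mrps7 with Gga3. From each start to 1 kb downstream, the score was higher on the member's side in 8 pairs and on the neighbour's side in 11. In the other 7 pairs 1 interval reached both sides. No such counts were made for other head-to-head pairs of protein-coding genes. Downstream of Mrps12 the score was 1745, against 11840 on the side of Sars2. For Mrpl18 it was 1797, against 8782 on the side of Tcp1, and for Mrpl49 1080, against 4174 on the side of Fau, which encodes a fusion of a ubiquitin-like and a cytosolic ribosomal protein. In the other direction Mrps5 had 13527 and Zfp661 no interval in that 1 kb, Mrpl51 had 8999 and Ncapd2 3887, and Mrpl37 had 4963 and the reductase gene Cyb5rl 446. At Mrpl43 and Twnk the sides had 2019 and 2494, and at Mrpl32 and the proteasome gene Psma2 3965 and 4086. The counts of the 26 pairs use the nearest pair of starts, and 2 members have a further start that changes the reading. Mrpl48 has 4 annotated starts, and the one nearest Rab6a, with 325 downstream of it, lies 36 bp inside Rab6a, while the common interval of 6630 on the side of Rab6a also covers and lies downstream of another start of Mrpl48, and 8988 lies downstream of a start inside the gene. At Mrpl2, with 3 starts, the common interval misses the start nearest Klc4 and covers the other 2. The pairs outside the 10 highest scores were picked for naming after their values had been seen. The high gene-end scores of Mrps12 and Mrpl18 given above were thus those of intervals lying on the neighbour's side of the starts.

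**Figure D4:**
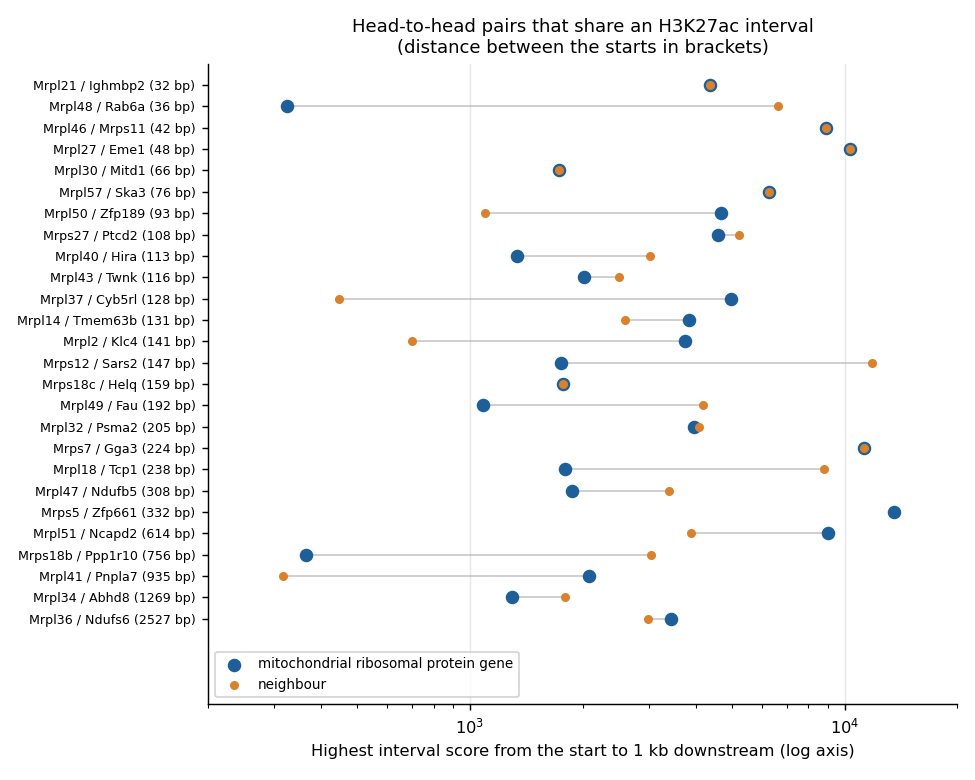
Highest H3K27ac interval score from the annotated start to 1 kb downstream (log axis) for the mitochondrial ribosomal protein gene (large blue points) and its neighbour (small orange points) in the 26 head-to-head pairs that have an interval in common, ordered by the distance between the nearest starts, which are those used; Zfp661, with no interval there, has no point. Points coincide where 1 interval reaches both sides, in 7 pairs, and Mrps12 (1745) and Sars2 (11840) lie far apart.

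Promoter windows from 250 bases before to 50 after the start were searched for the 7 motifs on both strands, in 75 windows of 69 members and 21263 windows of protein-coding genes, 14189 of which belong to genes marked at a gene end. The ETS core CCGGAAG was found in 34.7% of member windows, against 15.7% of windows of marked genes and 11.6% of those of protein-coding genes. ATGGCGG was in 17.3%, against 7.1% and 5.25%, and GCATGCG in 10.7%, against 5.76% and 4.44%. CCAAT was in 40.0%, against 37.6% and 38.2%, GGGCGG in 52.0%, against 60.3% and 46.2%, and TGACGT in 13.3%, against 10.6% and 8.49%. TATAAA was in 6.67%, against 7.57% and 12.6%. At least 1 of the ETS, NRF1 and YY1 letters was found in 37 of the 69 members (53.6%), among them Mrpl22 with all of them, against 29.1% of marked genes and 21.1% of protein-coding genes. This grouping was not planned, and it joins the motifs whose shares exceeded those of marked genes most. None of the 7 motifs was found in 6 members (8.7%), against 11.2% and 18.6%. The median ratio of observed to expected CpG was 0.82 in member windows, 0.726 in those of marked genes and 0.567 in those of protein-coding genes, and median GC content was 58.7%, 60.3% and 56.3%. A match describes the letters in the window and is not a site of binding, and windows of head-to-head pairs overlap.

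Other genes of mitochondrial translation were marked about as often. Of 60 such genes in 5 lists 58 were marked (96.7%), against 65.0% of protein-coding genes, with a median score of 4259.5 (range 756 to 11840). The 11840 was that of Sars2, from the interval that also gave Mrps12 its score. An interval in common with another gene was found in 25 of the 58 (43.1%), against 26.8% of marked protein-coding genes. The 5 genes for mitochondrial ribosomal proteins with other names were all marked, Ptcd3 with a score of 11565, Dap3 with 8685, Chchd1 with 6404, Gadd45gip1 with 4983 and Aurkaip1 with 3311. Translation factors were marked in 11 of 11, from the formyltransferase gene Mtfmt with 1998 to the elongation factor gene Guf1 with 9273. Assembly factors were marked in 20 of 20 with a median of 3392.5, from Rbfa with 1451 to Mterf3 with 11030. Mitochondrial tRNA synthetases were marked in 15 of 17, with Aars2 and Tars2 unmarked and Mars2 the lowest at 756. Genes for transcription and RNA handling of mitochondrial DNA were marked in 7 of 7 with a median of 5006, from the polymerase gene Polrmt with 1202 to the RNA-binding protein gene Lrpprc with 8386.

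Beside the most similar gene groups, the members shared the high frequency of marking with both groups. Their share with an interval over the start was near that of respiratory chain genes and apart from that of cytosolic ribosomal protein genes. Marking was found in 94.9% of mitochondrial ribosomal protein genes, 95.1% of 81 cytosolic ribosomal protein genes, 93.2% of 88 respiratory chain subunit genes and 65.0% of protein-coding genes. Median scores were 4267, 5889, 4779.5 and 2494 in the same order. Of genes with an annotated start, an interval lay over it in 71.0% of 69 mitochondrial and 36.1% of 61 cytosolic ribosomal protein genes. The shares were 66.2% of 71 respiratory chain genes and 40.7% of 17492 protein-coding genes. The median centre of the highest-scored interval, which can lie on a neighbour's side, lay 136, 489.5, 274.8 and 244.5 bp downstream of the start in that order. By this centre the members lay nearer to all protein-coding genes than to the respiratory chain genes. Another gene end lay within 1 kb in 56.4%, 35.8%, 55.7% and 24.8%, and marked genes had an interval in common with another gene in 52.7%, 28.6%, 46.3% and 26.8%. By these shares the mitochondrial ribosomal protein genes lay nearer to the respiratory chain genes than to the genes of the cytosolic ribosome, as a description of 1 merged list with no test of the difference.

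**Figure D5:**
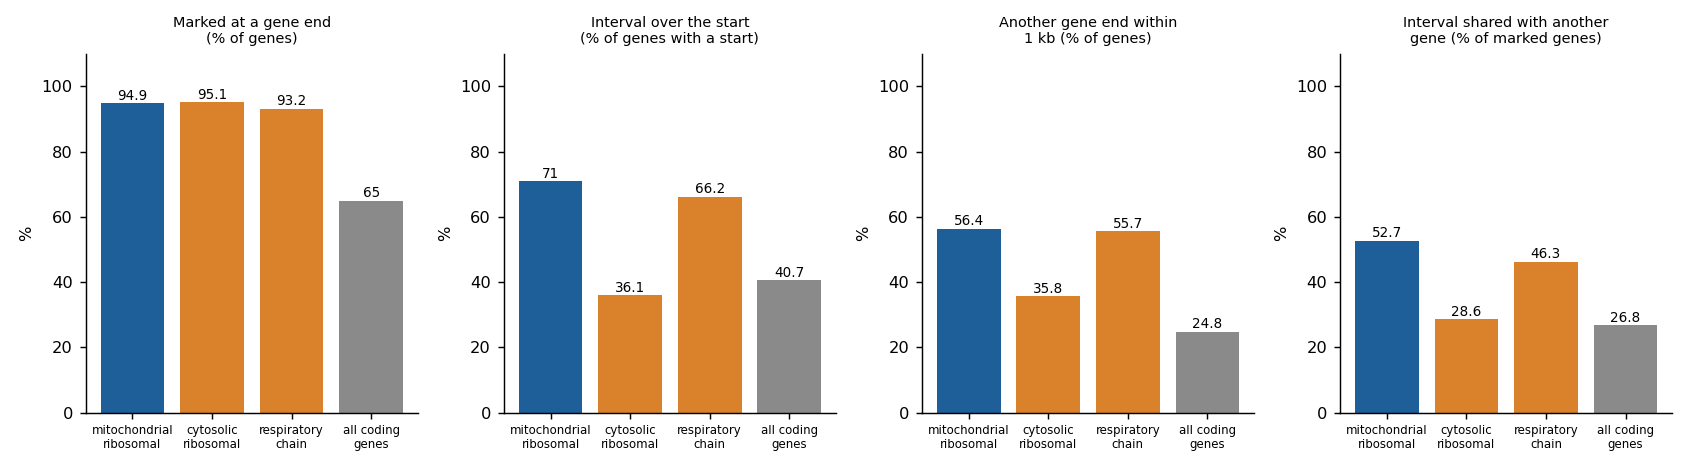
Shares (%) of mitochondrial ribosomal protein genes, cytosolic ribosomal protein genes, respiratory chain subunit genes and all protein-coding genes. From left to right, genes were marked at a gene end, had an interval over the start, or had another gene end within 1 kb. The last panel gives marked genes with an interval in common with another gene. The share over the start is of genes with an annotated start only. Bars are shares of genes in 1 merged list, with no error drawn. The first 3 groups are alike in marking (93.2% to 95.1%), while cytosolic ribosomal protein genes have an interval over the start in 36.1% and mitochondrial ones in 71.0%.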

How the data were processed

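Chromatin immunoprecipitation with an H3K27ac antibody was sequenced from sorted wild-type cranial neural crest cells, with libraries prepared by NEBNext Ultra, per the labels. The submitters' processing notes name bcl2fastq 2.17, Bowtie 1.1.1 and GRCm38. Per their deposited notes, the authors called intervals with MACS2 2.1.3.3 on the merged reads of 4 libraries, with no model, a shift of 0, an extension of 141 bp, duplicate reads retained and q-values up to 0.001; these notes give no control library, so reads piled up at repeated sequence can enter the list. The deposited values are interval positions and 1 score per interval, from 31 to 3194311 with a median of 111. The deposited score depends on depth, which is unknown, and was used to describe and rank intervals within this list.

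Gene limits, without strand, came from RefSeq for GRCm38.p6, the build of the list, and starts and strands from RefSeq promoter windows, found for 69 of the 78 members. Where a gene has several starts, the one with the highest-scored interval was used. Positions were joined with Python 3.11.15, numpy 2.4.6 and pandas 2.3.3 at an overlap of at least 1 bp, and the joining was tested on simulated intervals. The members and lists were chosen with earlier results of these data known. Named genes are all unmarked members, the 10 highest and 10 lowest scores, the 5 widest and 5 narrowest intervals, members with a common interval for the 10 highest scores, the Mrps18 paralogues and members near the threshold; others are said to be chosen after their values were seen. With 1 merged list there are no replicates, so no test was run and no p-value is given. Windows of 500 bp and 2.5 kb, score limits, the start in place of the gene ends and other counting rules were tried as alternatives. The other 24 libraries were not analysed here.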

Additional observations from a re-analysis of the deposited data

How the results depend on the processing

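With a window of 500 bp, scores of at least 100 or the higher-scored 50% of intervals, the main values stayed within their 95% intervals over genes. These values were the share of members marked (94.9%), their median score (4267), their median width (866 bp) and the share of marked members with an interval in common with another gene (52.7%). The score also did so when members with a common interval were left out (3980). Such an interval treats genes as a sample and served only as a yardstick, since genes of 1 merged list are not replicates. The lowest score of a marked member was 133, above the limit of 100 and the list median of 111. The score limits thus could not change the share marked, the score or the width. The share marked was 98.7% with a window of 2.5 kb, 100% at annotated starts, 100% anywhere in the gene and 65.4% when only intervals over the gene-end base itself counted, where protein-coding genes had 32.6%. The gene-end base also gave a width of 1057 bp and a share with a common interval of 35.3%, which was 39.1% at annotated starts. Summing over the intervals of a gene gave a median score of 5184.5 and a width of 1166 bp. In each of these settings the members' share or score exceeded that of protein-coding genes. The score from the start to 1 kb downstream, an alternative chosen after seeing the data, had a median of 3837. No paired analysis was possible because the authors' list merges 1 library of each population. Depth is unknown, so an unmarked gene end is one with no interval in this list, not one without acetylation.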
